A study of Mus musculus with 12 samples.

Results

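The genes described here are those of fatty acid oxidation and ketogenesis, the pathways that break fatty acids down in mitochondria and peroxisomes and turn part of the resulting acetyl-CoA into ketone bodies. A list of 42 such genes was taken by name, and 28 of them were among the 6429 genes of the authors' deposited tables. The 14 others were Acadl, Acad10, Eci2, Etfa, Etfdh, Acox2, Bdh1, Acat1, Acsl1, Acsl3, Acsl4, Acot1, Acot2 and Vnn1, and they were not analysed here. Both ketone body enzymes of the list, Bdh1 and Acat1, are among these 14, so none of the 28 genes is a ketone body enzyme. The measurement was occupancy of RNA polymerase II (Pol II) by chromatin immunoprecipitation and sequencing in epithelium of the mouse duodenum. The labels list 3 libraries of wild-type (WT) villus, 3 of WT crypt and 3 of villus from mice labelled as a double knockout (DKO) of Hnf4 alpha and gamma, both transcription factors, with 1 input library for each group. DKO mice received tamoxifen at 50 mg/kg/day for 2 days and were taken 1 day after the last injection, while WT mice received the oil and ethanol vehicle without tamoxifen. DKO tissue spent 25 minutes in EDTA and WT tissue 35 minutes, so genotype, tamoxifen and EDTA time cannot be told apart. All cells were labelled adult and the controls were littermates. Only villi were collected from DKO mice. The strain, the exact age, the driver of the recombinase and whether animals were pooled are not given in the sources used here.

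Long-chain fatty acids are first joined to coenzyme A by acyl-CoA synthetases, then carried into mitochondria on carnitine, and there shortened in repeated rounds of dehydrogenation, hydration, a further dehydrogenation and thiolysis. Peroxisomes run a parallel set of reactions on very long and branched chains, and their oxidases make hydrogen peroxide, which catalase removes. Many of these genes are known targets of the nuclear receptor PPARA, and HNF4 factors are known regulators of lipid metabolism genes in liver and intestine. Enterocytes, the absorptive cells that cover the villus, handle large amounts of dietary fat, and fatty acid oxidation is also active in crypts.

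Every log2 fold change, standard error and adjusted p of villus against crypt and of WT against DKO villus given below is from the authors' deposited tables, made with DESeq2. Positive changes stand for a larger signal in WT villus, and errors after ± are standard errors. Genes with an adjusted p under 0.05 are said to be called. The deposited mean signal of the 28 genes over all libraries ran from 62.6 to 754 normalised counts, with a median of 233 against 144 for all genes, and 20 of the 28 lay above that median. Values per library could not be used, because the count columns carry no names. In place of them, the mean signal of each group was rebuilt from the deposited mean and the 2 deposited fold changes, assuming groups of equal size. These group levels carry no spread of their own, and the window that was counted is not given, so levels are compared within a gene and not between genes. The signal at the targeted genes did not fall in the libraries labelled DKO. In the authors' deposited table the change was -0.54 ± 0.14 at Hnf4a (DESeq2 adjusted p 4.84e-04) and -1.45 ± 0.22 at Hnf4g (7.81e-10), both toward more signal in DKO. Which part of each gene was deleted is not given in the sources used here, and Pol II outside it would not report on the deletion. The group is therefore called labelled-DKO villus, and each direction rests on the tables' names. All 13 enterocyte markers tested of 14 were called higher in WT villus in both deposited tables, with changes from 0.93 to 2.11 over crypt and from 0.49 to 3.87 over labelled-DKO villus. Of 11 crypt stem and dividing cell markers 3 were tested (Axin2, Myc and Pcna), and all 3 were called higher in crypt than in villus. Between the genotypes Myc at -0.67 ± 0.18 (DESeq2 adjusted p 5.36e-04) and Pcna at -0.62 ± 0.20 (0.00568) were called toward labelled-DKO villus, the direction of Cpt1a and the other genes below with more signal there, and Axin2 had -0.38 ± 0.17 (0.0531). Of the 8 secretory markers 6 were tested, with 2 called each way between villus and crypt and 2 called higher in labelled-DKO villus. Among 6 immune markers Cd74 was tested and called higher in WT villus in both tables, and none of the 5 mesenchyme markers was tested. The part that cell composition has in the results below was not tested, and in these bulk samples fewer cells of a type and less Pol II per cell cannot be told apart.

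In labelled-DKO villus the pathway split by enzyme and by compartment. Several genes of the mitochondrial route (Cpt1a, Hadha, Hadhb, Acadvl and Acaa2) and the fuel switch kinase Pdk4 carried more Pol II than in WT villus, while most peroxisomal enzymes (Acaa1a, Acaa1b, Scp2, Cat, Crot, Ehhadh and Hsd17b4), Acsl5 and the mitochondrial short-chain dehydrogenase Hadh carried less. Of the 28 genes 21 were called in the deposited table of WT against labelled-DKO villus, 75.0% against a background of 51.9% of all genes. The called genes were 11 higher in WT villus, where the background was 22.4%, and 10 higher in labelled-DKO villus, where it was 29.5%. The median change of the 28 genes was 0.01 against -0.08 for all genes, with single changes from -1.75 to 1.12.

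Sorted by compartment from textbook knowledge, 13 of the genes were grouped as mitochondrial enzymes, 10 as peroxisomal proteins and 5 as others. The 5 were Acad11, Acsl5, Crat and Acot12, of another or a mixed location, and Pdk4. Pdk4 encodes a mitochondrial kinase but was placed with the 5, so every count or median of mitochondrial genes leaves it out. This sorting was made with the values known and is a description. Of the 13 mitochondrial genes 7 were called higher in labelled-DKO villus, 1 was called higher in WT villus and 5 were not called, with a median deposited change of -0.26. Of the 10 peroxisomal genes 7 were called higher in WT villus, 2 (Decr2 and Pex11a) higher in labelled-DKO villus, and 1 was not called, with a median of 0.37. Among the 5 others, 3 were called higher in WT villus, 1 was called higher in labelled-DKO villus and 1 was not called. Hadh among the mitochondrial genes, and Decr2 and Pex11a among the peroxisomal genes, went against the larger number of their compartment.

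**Figure D1:**
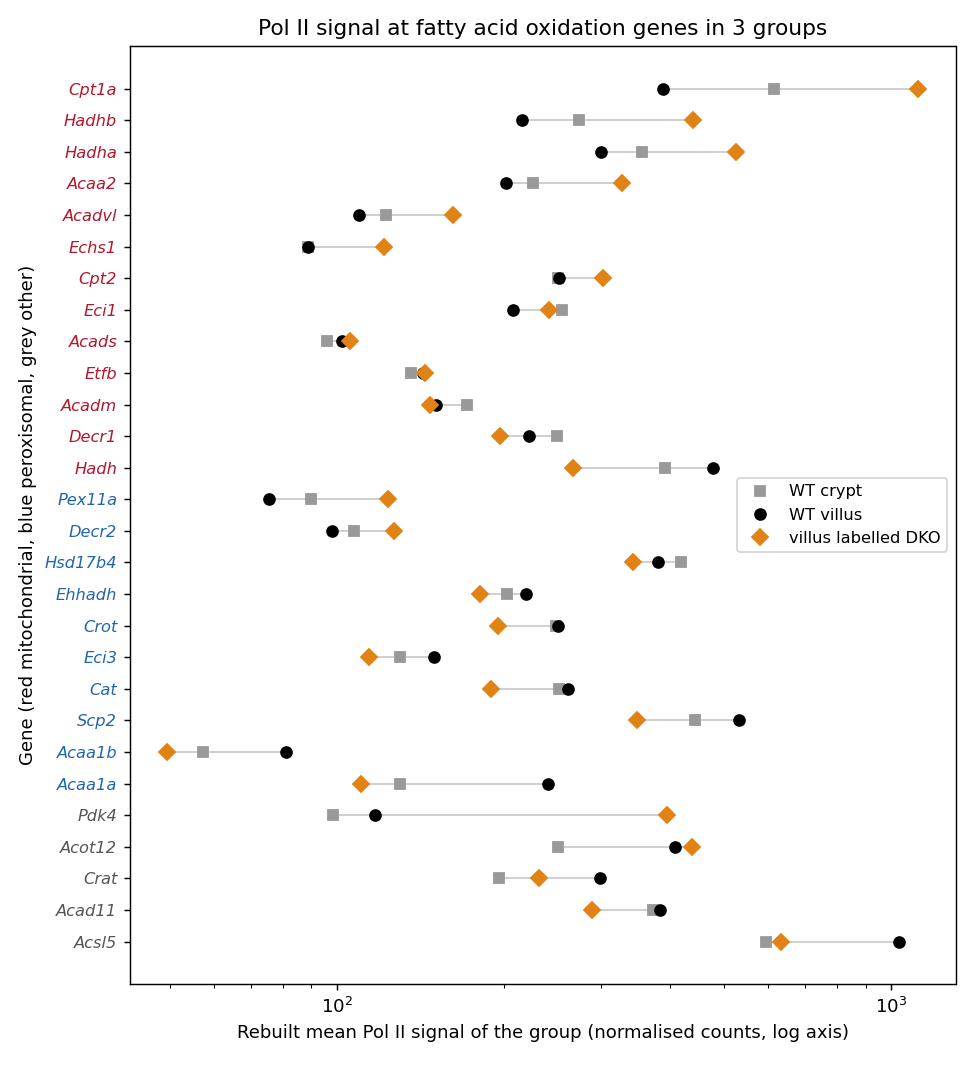
Rebuilt mean Pol II signal (normalised counts, log axis) at the 28 genes in WT crypt (grey squares), WT villus (black circles) and labelled-DKO villus (orange diamonds), with no error since the levels have no spread over libraries. Labelled-DKO villus lies far to the right at Cpt1a, with 1119 against 388 in WT villus, and at Pdk4, with 394 against 117, and to the left of WT villus at most peroxisomal genes.

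Promoter letters are shown for 5 genes picked by hand, with called changes in both directions between the genotypes. They are the 250 bases before the annotated start site (RefSeq, GRCm38.p6), 5′ to 3′ on the strand of the gene. The 5 are not those that moved most, since Hadh at 0.84, not shown, moved more than Scp2 at 0.61. How many of the 5 hold an element therefore stands for no larger set. Capitals mark AGGTCA or its complement TGACCT, the short element that nuclear receptors such as PPARA with RXRA recognise in pairs. The Hadhb stretch lies between the divergent starts of Hadha and Hadhb, and those of Pdk4, Hadhb and Acaa1a hold no such element.
Cpt1a (chr19:3323051-3323300, plus strand): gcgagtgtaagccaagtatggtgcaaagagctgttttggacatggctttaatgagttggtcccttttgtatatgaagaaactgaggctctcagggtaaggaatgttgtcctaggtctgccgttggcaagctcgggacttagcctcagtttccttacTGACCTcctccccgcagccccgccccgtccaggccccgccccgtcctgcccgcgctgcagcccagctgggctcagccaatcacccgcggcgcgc
Pdk4 (chr6:5496279-5496528, minus strand): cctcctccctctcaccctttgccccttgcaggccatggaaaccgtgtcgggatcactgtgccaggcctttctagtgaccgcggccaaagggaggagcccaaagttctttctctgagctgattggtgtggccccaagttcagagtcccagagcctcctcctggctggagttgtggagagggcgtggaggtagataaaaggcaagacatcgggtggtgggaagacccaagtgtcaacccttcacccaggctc
Hadhb (chr5:30155003-30155252, plus strand): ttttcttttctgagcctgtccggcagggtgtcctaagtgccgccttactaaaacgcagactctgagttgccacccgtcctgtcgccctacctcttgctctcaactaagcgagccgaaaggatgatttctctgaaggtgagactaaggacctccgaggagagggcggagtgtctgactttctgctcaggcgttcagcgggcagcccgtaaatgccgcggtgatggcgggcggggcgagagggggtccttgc
Acaa1a (chr9:119341044-119341293, plus strand): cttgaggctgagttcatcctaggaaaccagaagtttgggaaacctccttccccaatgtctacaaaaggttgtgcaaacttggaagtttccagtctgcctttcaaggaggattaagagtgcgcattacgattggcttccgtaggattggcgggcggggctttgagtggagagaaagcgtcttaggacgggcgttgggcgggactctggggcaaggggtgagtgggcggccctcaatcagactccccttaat
Scp2 (chr4:108118548-108118797, minus strand): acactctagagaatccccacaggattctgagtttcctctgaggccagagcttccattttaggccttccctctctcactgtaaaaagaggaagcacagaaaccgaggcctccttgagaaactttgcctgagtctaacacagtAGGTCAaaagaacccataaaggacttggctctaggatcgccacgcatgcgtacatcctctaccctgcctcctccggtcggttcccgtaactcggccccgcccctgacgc

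The carnitine shuttle moved in both directions. Cpt1a encodes the outer membrane carnitine palmitoyltransferase that sets the rate of long-chain fatty acid entry into mitochondria. Its rebuilt signal was 388 normalised counts in WT villus, 615 in WT crypt and 1119 in labelled-DKO villus. The lowest level was thus in WT villus and the highest in labelled-DKO villus, 2.88-fold above WT villus. The authors' deposited table gave -1.53 ± 0.08 for WT over labelled-DKO villus (DESeq2 adjusted p 1.4e-72) and -0.66 ± 0.08 for villus over crypt (2.03e-13). Cpt2, the inner membrane partner, changed less, with levels of 252 in WT villus, 251 in crypt and 302 in labelled-DKO villus. It was called higher in labelled-DKO villus at -0.26 ± 0.08 (DESeq2 adjusted p 0.00136). Its deposited change of villus over crypt was 0.00, with a 95% interval of -0.15 to 0.16. Crat and Crot move short and medium acyl groups onto carnitine, Crot in peroxisomes. The authors' deposited table called both toward WT villus between the genotypes, Crat at 0.36 ± 0.16 (DESeq2 adjusted p 0.0412) and Crot at 0.36 ± 0.11 (0.00389). Crat was also called higher in villus than in crypt, at 0.60 ± 0.16 (7.43e-04), and its windows overlap those of Dolpp1 and Ptpa.

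Pdk4 showed the largest change of the 28 genes between the genotypes. It encodes pyruvate dehydrogenase kinase 4, which holds back glucose oxidation when fat is the fuel. The rebuilt signal was 117 normalised counts in WT villus, 98.3 in WT crypt and 394 in labelled-DKO villus, so both WT groups were low and labelled-DKO villus stood apart. The deposited change of WT over labelled-DKO villus was -1.75 ± 0.25 (DESeq2 adjusted p 5.23e-11), a 3.37-fold higher signal in labelled-DKO villus. The authors' deposited table did not call it between villus and crypt, at 0.25 ± 0.26 with a 95% interval of -0.25 to 0.76. Pdk4 had the largest standard error of the 28 genes in the genotype comparison.

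Among the acyl-CoA dehydrogenases, which open each round of mitochondrial oxidation, only the very long-chain enzyme of the mitochondrial 3 was called. Acadvl had levels of 110 in WT villus, 123 in crypt and 162 in labelled-DKO villus, and a deposited change of -0.57 ± 0.16 for WT over labelled-DKO villus (DESeq2 adjusted p 0.00101). The medium-chain gene Acadm and the short-chain gene Acads were not called in either deposited table. For WT over labelled-DKO villus the 95% interval was -0.22 to 0.29 at Acadm and -0.30 to 0.20 at Acads. Neither holds the estimate of Acadvl, but the interval of Acadvl, -0.88 to -0.26, overlaps that of Acads. Differences between these genes were not tested. Acad11, a more distant family member, was called in the opposite direction at 0.41 ± 0.14 (0.00719), and its windows overlap those of Ackr4. None of the 4 was called between villus and crypt. Etfb, a subunit of the flavoprotein that takes electrons from these dehydrogenases, had 95% intervals of -0.17 to 0.14 between the genotypes and -0.09 to 0.23 between villus and crypt.

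The later steps of the mitochondrial round gave 4 genes higher in labelled-DKO villus and 1 higher in WT villus. Hadha and Hadhb encode the subunits of the trifunctional protein, which carries out the later steps on long chains at the inner membrane. Hadha had levels of 299 in WT villus, 356 in WT crypt and 526 in labelled-DKO villus, and Hadhb had 216, 274 and 440 in the same order. At both genes WT villus was lowest and labelled-DKO villus highest. Deposited changes of WT over labelled-DKO villus were -0.81 ± 0.09 for Hadha (DESeq2 adjusted p 4.95e-19) and -1.03 ± 0.13 for Hadhb (7.37e-14). Between villus and crypt they were -0.25 ± 0.09 (0.0181) and -0.34 ± 0.13 (0.0305), and neither was called once the changes were centred on the median of all genes. The pair lies head to head, with start sites 273 bases apart on chromosome 5, and the window of Hadha reaches into that of Hadhb, so their values share reads if those windows were used.

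Acaa2, the mitochondrial thiolase, had levels of 202 in WT villus, 226 in crypt and 327 in labelled-DKO villus. Its deposited change between the genotypes was -0.69 ± 0.12 (DESeq2 adjusted p 8.69e-08). Echs1, the short-chain hydratase, followed at -0.45 ± 0.12 (5.39e-04), with levels of 88.9, 88.8 and 122 in WT villus, WT crypt and labelled-DKO villus. Hadh, which dehydrogenates short and medium hydroxyacyl-CoAs, went the other way. Its levels were 478 in WT villus, 392 in WT crypt and 267 in labelled-DKO villus, the reverse order of Hadha. The authors' deposited table gave 0.84 ± 0.09 for WT over labelled-DKO villus (DESeq2 adjusted p 9.93e-18) and 0.29 ± 0.09 for villus over crypt (0.00800). The auxiliary enzymes of unsaturated chains, Eci1 and Decr1, were not called in either deposited table, with changes of -0.22 ± 0.14 and 0.17 ± 0.11 between the genotypes.

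**Figure D2:**
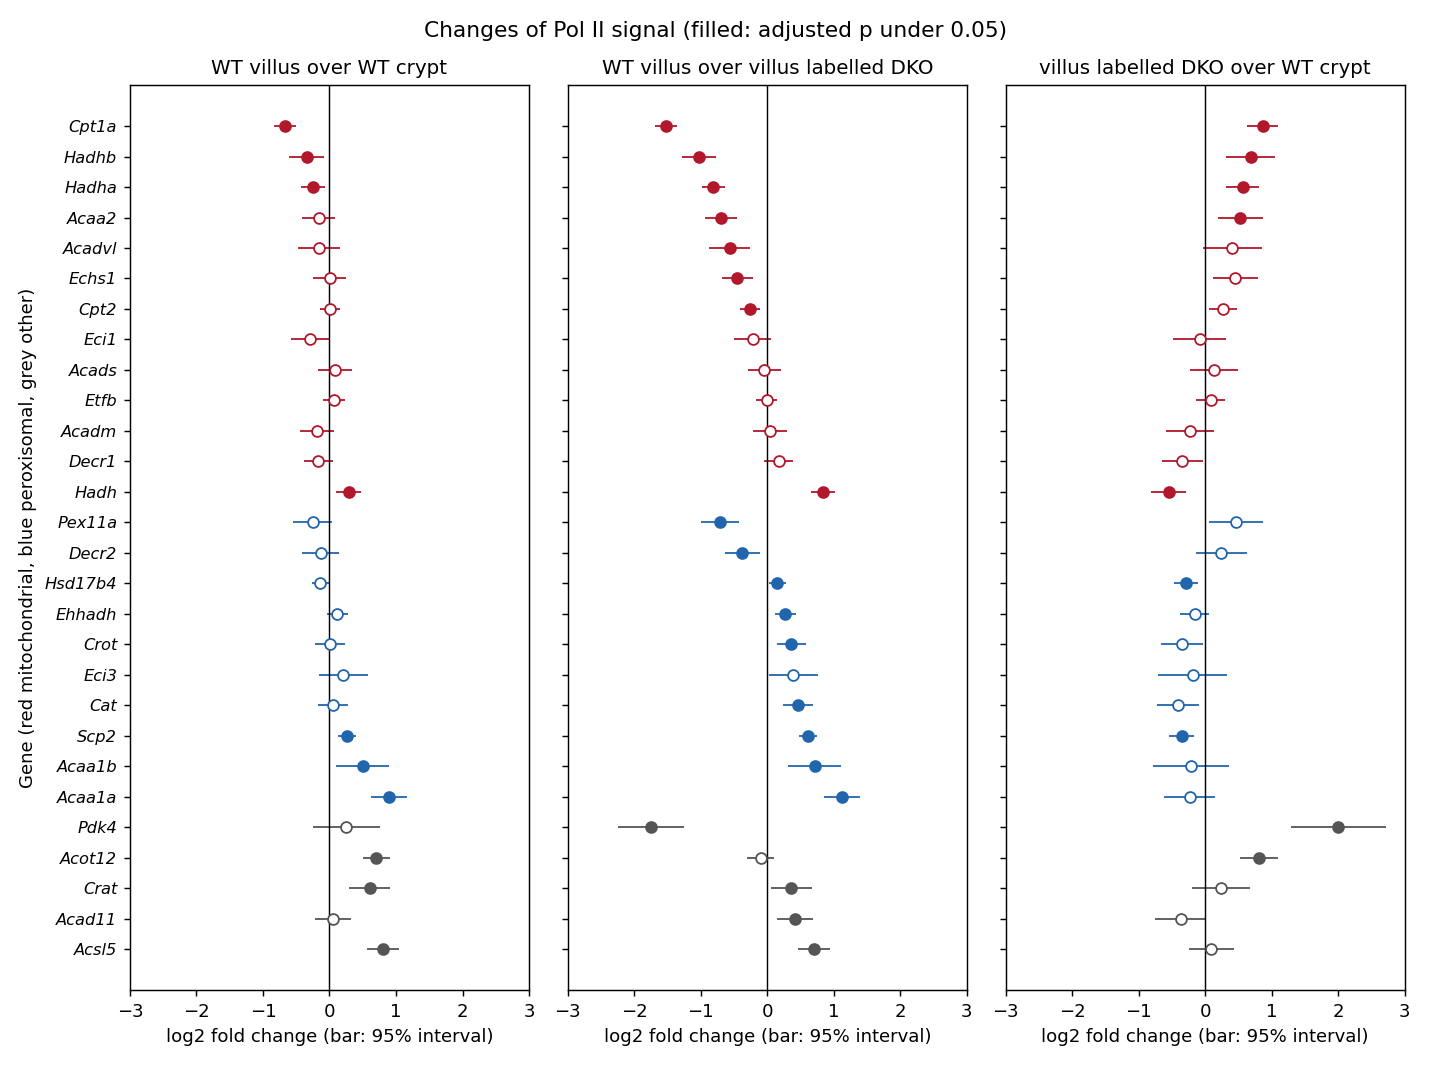
Log2 fold changes with 95% intervals at the 28 genes for WT villus over WT crypt, WT villus over labelled-DKO villus and labelled-DKO villus over WT crypt. Colours are red (mitochondrial, without Pdk4), blue (peroxisomal) or grey (others, with Pdk4), filled where the adjusted p was under 0.05. In the middle panel Pdk4 at -1.75 and Cpt1a at -1.53 lie at the left and Acaa1a at 1.12 at the right.

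Peroxisomal genes carried less Pol II in labelled-DKO villus in most cases. Acaa1a, a peroxisomal 3-ketoacyl-CoA thiolase, had levels of 241 in WT villus, 130 in WT crypt and 111 in labelled-DKO villus. WT villus was thus the single high group. Its deposited changes were 1.12 ± 0.14 over labelled-DKO villus (DESeq2 adjusted p 9.86e-15) and 0.89 ± 0.14 over crypt (3.89e-09), the largest of the 28 genes in the positive direction in both tables. The closely similar copy Acaa1b, whose start site lies 184 kb away on chromosome 9, was called at 0.71 ± 0.20 (0.00155) and 0.50 ± 0.21 (0.0432). Reads may be split between such copies, so the values of the pair are uncertain, and the windows of Acaa1b overlap those of Dlec1. Scp2, which encodes sterol carrier protein 2 and a thiolase for branched chains, had levels of 532 in WT villus, 444 in crypt and 348 in labelled-DKO villus. It was called in both deposited tables, at 0.61 ± 0.07 between the genotypes (2.13e-18) and 0.26 ± 0.07 between villus and crypt (5.57e-04).

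Cat, the catalase gene, had levels of 262 in WT villus, 252 in WT crypt and 189 in labelled-DKO villus, and a deposited change of 0.47 ± 0.11 between the genotypes (DESeq2 adjusted p 1.85e-04). The bifunctional enzymes Ehhadh and Hsd17b4 had smaller changes, of 0.27 ± 0.08 (0.00177) and 0.15 ± 0.06 (0.0402). Cat, Crot, Ehhadh and Hsd17b4 were not called between villus and crypt, where the authors' deposited changes ran from -0.14 at Hsd17b4 to 0.12 at Ehhadh. Both peroxisomal genes called the other way were Pex11a and Decr2. Pex11a, a membrane protein of peroxisome division, had levels of 75.5 in WT villus, 90.0 in crypt and 124 in labelled-DKO villus, with a deposited change of -0.71 ± 0.14 (4.24e-06). Decr2, the peroxisomal dienoyl-CoA reductase, was called at -0.37 ± 0.14 (0.0144), a call lost on centring on the median of all genes, with an adjusted p of 0.0632. Eci3, a peroxisomal isomerase, missed the threshold at 0.39 ± 0.19 (0.0679) and was called after centring, with an adjusted p of 0.0269.

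Between WT villus and WT crypt the genes higher in villus included peroxisomal thiolases, Acsl5 and Acot12, and those higher in crypt were Cpt1a and both trifunctional protein genes. Of the 28 genes 10 were called in the authors' deposited table, 35.7% against a background of 37.4% of all genes, a share near the background. Of these 7 were higher in villus, where the background was 18.6%, and 3 were higher in crypt, where it was 18.8%. The 7 were Acaa1a, Acsl5, Acot12, Crat, Acaa1b, Hadh and Scp2, and the 3 were Cpt1a, Hadhb and Hadha. No change exceeded 1 on the log2 scale. The median of the 28 changes was 0.03, against -0.04 for all genes.

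Acsl5 and Acot12 were both called higher in WT villus than in WT crypt. Acsl5 encodes the acyl-CoA synthetase that is abundant in intestine and activates long-chain fatty acids. Its levels were 1035 in WT villus, 594 in WT crypt and 634 in labelled-DKO villus, so labelled-DKO villus lay near crypt. The authors' deposited changes were 0.80 ± 0.12 over crypt (DESeq2 adjusted p 1.65e-09) and 0.71 ± 0.12 over labelled-DKO villus (5.84e-08). Acot12, which hydrolyses acetyl-CoA in the cytosol, had levels of 408 in WT villus, 250 in WT crypt and 438 in labelled-DKO villus, so both villus groups were high. Its deposited change over crypt was 0.71 ± 0.10 (2.75e-10). Between the genotypes it was -0.10 ± 0.10 and not called, with a 95% interval of -0.30 to 0.10. The windows of Acot12 overlap those of 4833422C13Rik, and none overlaps those of Acsl5.

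Labelled-DKO villus was also set against WT crypt, as the difference of both deposited changes with the largest standard error that independent libraries allow. By the Wald test with Benjamini-Hochberg adjustment over all genes, 9 of the 28 genes were called, 32.1% against a background of 13.6%. Of these 6 were higher in labelled-DKO villus, where the background was 6.41%, and 3 were higher in crypt, where it was 7.19%. This comparison shares its libraries with both deposited tables, so it is no separate evidence. Pdk4 was higher in labelled-DKO villus by 2.00 ± 0.36 on the log2 scale (Wald adjusted p 1.61e-06), Cpt1a by 0.86 ± 0.12 (5.05e-11) and Acot12 by 0.81 ± 0.14 (1.46e-06). Hadhb, Hadha and Acaa2 followed, with 0.68 ± 0.19 (0.00360), 0.56 ± 0.13 (1.89e-04) and 0.53 ± 0.17 (0.0219). At these mitochondrial genes and Pdk4 the labelled-DKO level lay above both WT groups. The genes higher in crypt were Hadh at -0.55 ± 0.13 (6.92e-04), Scp2 at -0.35 ± 0.10 (0.00349) and Hsd17b4 at -0.28 ± 0.09 (0.0180). Acaa1a and Acsl5 were not called, with 95% intervals of -0.62 to 0.15 and -0.25 to 0.43. When the standard error was rebuilt, 17 of the 28 genes were called in place of 9, or 60.7% against a background that rose to 30% of all genes, Cpt2, Acadvl, Echs1, Pex11a, Cat, Crot, Decr1 and Acad11 being added.

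With those printed above, 24 of the 28 genes matched a RefSeq entry of 250 bases before to 50 after the start, and Decr1, Acaa2, Hsd17b4 and Crat did not. On both strands, the letters CAAAGTCCA, CAAAGTNCA and CAAAGGTCA, forms of the HNF4 and direct repeat elements, and the full direct repeat of AGGTCA with 1 base between were in none of the 24. Among all 32851 promoters of this length they were in 0.475%, 1.41%, 0.478% and 0.0396%, so few matches could be had, and CAAAGTCCA is one of the forms of CAAAGTNCA. TATAAA was in none of the 24 and in 13.6% of all promoters, or 8.12% of those of the genes tested. The single element AGGTCA, searched after the others, was in 7 of the 24 (29.2%) and in 16.3% of all promoters, or 13.8% of those of the genes tested. These were the promoters of Cpt1a, Acadvl, Echs1, Acadm, Scp2, Cat and Acot12. The element began 94 bases before the start of Cpt1a, 87 before Acadvl, 83 before Echs1, 109 before Scp2, 110 before Acot12, 204 before Cat and 249 before Acadm. They include genes called in each direction and Acadm, which was not called. The GC content of the 24 had a median of 60.7%, equal to that of the promoters of the genes tested, and ranged from 43.7% at Acaa1b to 69.7% at Crot. The median number of CG dinucleotides was 15, against 20 in promoters of the genes tested.

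The surrounding pathway was read from lists that leave out the 28 genes. Of 68 other fatty acid oxidation and ketone genes 35 were tested, and WT against labelled-DKO villus called 11 toward WT, 12 toward labelled-DKO and left 12 uncalled, with a median of 0.06. The share called was 65.7%, against a background of 51.9% of all genes. Fatty acid uptake and binding genes had the largest deposited changes toward WT villus, with 2.46 ± 0.45 at Fabp2 (DESeq2 adjusted p 4.19e-07) and 1.76 ± 0.12 at the fatty acid transporter Slc27a4 (1.97e-43). Pdk2, a relative of Pdk4, was called at 0.98 ± 0.13 (1.71e-12), opposite in sign to Pdk4. Plin2, which coats lipid droplets, was called higher in labelled-DKO villus at -1.09 ± 0.17 (4.70e-10).

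**Figure D3:**
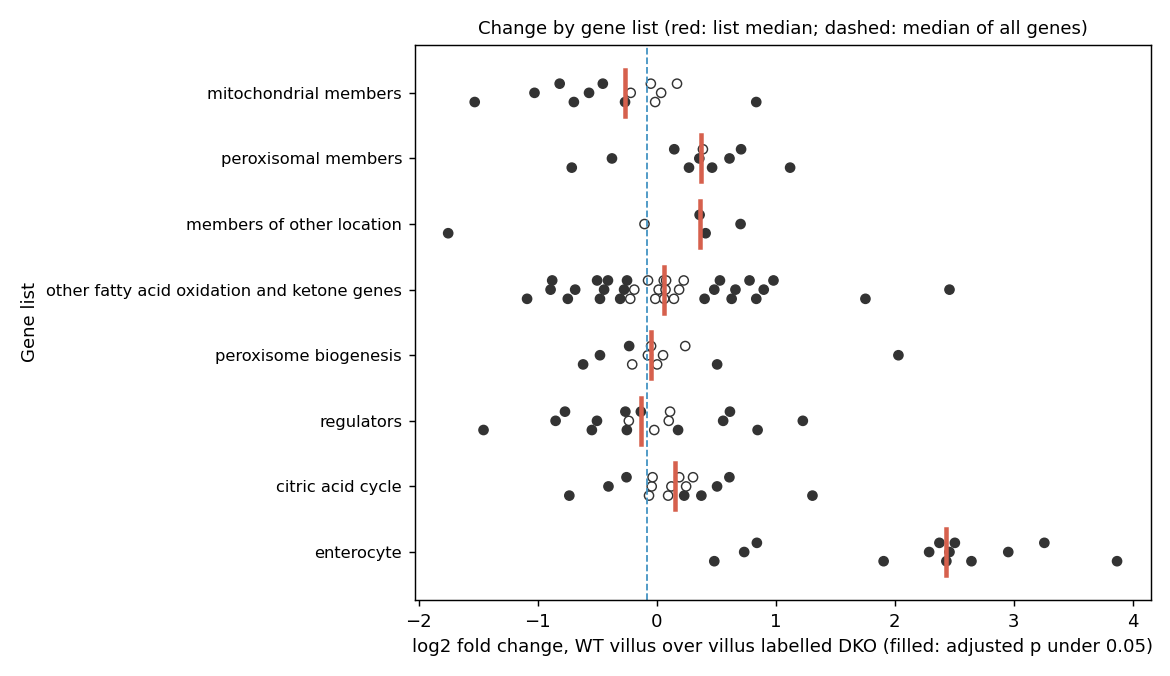
Deposited log2 fold changes of WT over labelled-DKO villus for single genes by list, filled where the adjusted p was under 0.05, with the list median in red and the median of all genes (-0.08) dashed. The mitochondrial genes, without Pdk4, have a median of -0.26, the peroxisomal genes of 0.37 and the enterocyte markers of 2.44.

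Of 19 regulators 17 were tested, and 5 were called higher in WT villus and 8 higher in labelled-DKO villus. The share called was 76.5%, against a background of 51.9% of all genes. Ppara, the receptor that switches on fatty acid oxidation genes, had levels of 423 in WT villus, 495 in WT crypt and 762 in labelled-DKO villus. The authors' deposited change was -0.85 ± 0.10 (DESeq2 adjusted p 7.83e-17). Its partner Rxra was called in the other direction at 0.85 ± 0.12 (4.73e-11), as was Creb3l3, a fasting-responsive factor of lipid metabolism, at 1.23 ± 0.11 (1.93e-25). Of 18 citric acid cycle genes 16 were tested, with 5 called higher in WT villus, 3 higher in labelled-DKO villus and a median of 0.16. The share called, 50.0%, was near the background of 51.9% of all genes. Mdh1, the cytosolic malate dehydrogenase, had the largest change of this list at 1.31 ± 0.11 (4.33e-30), and Idh3b the largest the other way at -0.73 ± 0.14 (1.84e-06). Of 19 peroxisome biogenesis and membrane genes 11 were tested, with 2 called higher in WT villus and 3 higher in labelled-DKO villus. The share called, 45.5%, lay below the background of 51.9%. The largest change of that list was at Pmp22, which is a myelin membrane protein and no peroxisomal gene, at 2.03 ± 0.17 (2.99e-32). Pex16, a peroxisome assembly gene, was called at 0.51 ± 0.12 (1.33e-04).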

How the data were processed

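Pol II ChIP-seq libraries of 3 groups with 3 libraries each were analysed through 2 comparison tables. Per the submitters' processing notes, tools included Bowtie2 2.2.6, Picard, featureCounts and DESeq2 1.36.0, with genome build mm9. Whether the libraries came from separate animals is not given in the sources used here, so the spread behind the p-values may be technical. Per the file headers, these are DESeq2 result tables. In them the authors deposited for each of 6429 genes a mean signal (normalised by size factors), a log2 change and its standard error, the score of the Wald test, and p-values raw and adjusted. The adjusted values equalled the Benjamini-Hochberg adjustment over all genes to within 3.76e-07. The window counted, the gene filter and shrinkage are not given in the sources used here.

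Per the file headers, featureCounts 2.0.3 counted read pairs at a mapping quality of at least 30 over promoter and gene body windows, with pairs given to every window they overlap and no strand option. The 18 count columns of those deposited tables have no names, match no sample and were not used, so depth per library is unknown. Window positions served to find overlaps (12 of the 28 genes).

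Computed here were the group levels, the comparison of labelled-DKO villus with crypt, counts, medians and promoter letters, with Python 3.11.15, pandas 2.3.3, numpy 2.4.6, scipy 1.17.1 and matplotlib 3.10.9. The test was run on simulated data with equal groups and a common spread. This was a check of the code and does not show how the test behaves on these data. The direction of the tables was checked from the standard errors, whose differences were fitted on inverse group levels. The slope of the fit was not allowed below 0. The fit explained 68.7% of squares with the signs as named and 40.4% with the first reversed. With the second reversed the slope was set to 0 by that limit, so the 0 explained there was fixed by it. Alternatives were an adjusted p under 0.01, a log2 limit of 1, a test against changes up to 0.5, centring, a floor of 100 on the mean signal, only genes with no overlap, and a rebuilt standard error. The genes, lists, roles and compartments were chosen with earlier results of these data known. All 28 genes could be named, and from the other lists at most 4 per comparison by the size of the called change. Some genes of those lists are not reported here.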

Additional observations from a re-analysis of the deposited data

How the results depend on the processing

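Counts of called genes fell most where a size of change was required. With a log2 fold change beyond 1, villus against crypt kept 0 of the 28 genes in place of 10, the genotypes kept 4 in place of 21, and labelled-DKO villus against crypt kept 1 in place of 9. Tested against changes up to 0.5, these became 0, 6 and 1. Higher in labelled-DKO villus were then 2 (limit of 1) and 3 (changes up to 0.5) mitochondrial genes in place of 7, and 0 peroxisomal genes under both settings in place of 2. Higher in WT villus was 1 peroxisomal gene in place of 7 under both settings, and the limit of 1 left 0 mitochondrial genes in place of 1. Among the 16 genes without an overlapping gene 4, 13 and 5 were called. Between the genotypes these included 4 mitochondrial and 1 peroxisomal gene higher in labelled-DKO villus, and 1 mitochondrial and 5 peroxisomal genes higher in WT villus. Except for the rebuilt standard error, the share of all genes called under each alternative was not computed. The drops in these counts are therefore not set against a background. Centring gave 2 mitochondrial genes higher in WT villus and 1 peroxisomal gene higher in labelled-DKO villus, the latter count also being 1 with an adjusted p under 0.01 and with a mean signal of at least 100. The rebuilt standard error raised 9 to 17. In promoters starting 100 bases before the start, 3 in place of 7 held AGGTCA. Of the gene values under all alternatives 396 kept direction and side of the threshold, 79 lost the call and 10 gained it. Part of the 396 was fixed in advance, so the tally does not measure how stable the calls are. Genes without an overlap kept the same values, and genes not called could gain no call under the stricter threshold or either requirement on size. Centring turned Acads (to 0.033) and Etfb (to 0.069), neither of them called. The limits on size remove smaller changes by construction, and other causes were not tested. No paired analysis was possible because named values of single libraries could not be used here. Leaving out a library was not run for the same reason.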

Other observations

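The deposited gene body windows differ by strand in a way that touches these genes. For all 21190 transcripts on the minus strand with both windows, the gene body window contains the whole promoter window, and for none of the 19858 on the plus strand does it. On the minus strand the gene body window most often ends 250 bases beyond the upstream edge of the promoter window. Of the 28 genes 18 lie on the minus strand and 10 on the plus strand. Whether the deposited comparisons used these windows is not given, and the effect on them was not tested. Between the genotypes, the plus-strand genes included 4 called higher in WT villus and 3 higher in labelled-DKO villus, and the minus-strand genes 7 and 7. None of the 28 genes lies within 10 Mb of Hnf4a or Hnf4g.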
